A study of Mus musculus with 10 samples.

Results

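Chromatin accessibility was compared between intestinal innate lymphoid cells (ILCs) that had lost both RORgt and RORa and ILCs that had lost RORgt alone, to ask what the RORa deletion added. It used the 3 RORgt-RORa-KO and the 2 RORgt-KO libraries, which are 5 of the 10 libraries of the series, and all 36251 of 36262 peaks that lie outside the Y chromosome. The assay, ATAC-seq, uses the transposase Tn5 to cut open DNA and tag it for sequencing. The cells were sorted from the lamina propria of the small intestine of C57BL/6 mice.

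Every mouse carried Id2creERT2, a tamoxifen-activated Cre recombinase driven by Id2, a gene that all ILCs express, and the red fluorescent reporter tdRFP. All mice, controls included, received the tamoxifen diet. The RORgt-KO mice had loxP sites on both alleles of the RORgt gene, and the RORgt-RORa-KO mice had these and were also Roraf/f. Beside them stand 3 Control libraries with the Cre and the reporter but no floxed allele, and 2 RORgt-Tbet-KO libraries, with the floxed RORgt gene and Tbx21f/f. Both groups of the comparison therefore carry the RORgt deletion, which every group but the Control shared. A library came from 1 mouse or from 2 or 3 pooled mice. The labels do not say which libraries were pooled, which surface markers and whether the reporter were gated, which exons were deleted, or what the batches were.

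RORgt and RORa, the latter made from Rora, are nuclear receptors that bind the same kind of DNA element, an AGGTCA core with an A- and T-rich stretch ahead of it. RORgt is the defining factor of group 3 ILCs, which make IL-17 and IL-22 in the gut wall, and RORa is needed for the development of group 2 ILCs and is also present in group 3 ILCs. Both receptors compete with the REV-ERB repressors on clock genes.

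The promoters of Il23r and Il17f both lie in peaks that lost accessibility when RORa was deleted as well. They are shown with a ROR element match marked in Il23r and only the AGGTCA core marked in Il17f. Il23r encodes a chain of the receptor for IL-23, the cytokine that activates group 3 ILCs, and Il17f encodes an IL-17 family cytokine. The third sequence lies ahead of the predicted gene Gm34350, the other promoter with the longer motif in a peak that changed. Each sequence is the 250 bases ahead of the RefSeq start site (GRCm38.p6), read 5′ to 3′ toward the gene. The capitals mark ANNTAGGTCA, the longer ROR element, in Il23r (chr6:67491856-67492105, minus strand) and Gm34350 (chr7:67802939-67803188, plus strand), and AGGTCA, the core alone, in Il17f (chr1:20784271-20784520, minus strand). The match ended 61 bases ahead of the start site in Il23r, 53 in Il17f and 44 in Gm34350. Il23r also holds the core on the opposite strand, near the far end of the window, which is not capitalised.
Il23r: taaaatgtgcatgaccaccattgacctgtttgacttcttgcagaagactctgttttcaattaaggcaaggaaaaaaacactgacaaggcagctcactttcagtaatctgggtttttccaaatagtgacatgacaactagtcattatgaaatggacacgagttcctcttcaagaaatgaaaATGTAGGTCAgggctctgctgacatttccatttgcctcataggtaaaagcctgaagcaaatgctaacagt
Il17f: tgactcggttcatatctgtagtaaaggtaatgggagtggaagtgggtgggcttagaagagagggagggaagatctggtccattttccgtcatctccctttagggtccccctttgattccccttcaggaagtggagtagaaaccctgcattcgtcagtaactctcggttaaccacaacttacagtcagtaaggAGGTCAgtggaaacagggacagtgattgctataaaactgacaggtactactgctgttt
Gm34350: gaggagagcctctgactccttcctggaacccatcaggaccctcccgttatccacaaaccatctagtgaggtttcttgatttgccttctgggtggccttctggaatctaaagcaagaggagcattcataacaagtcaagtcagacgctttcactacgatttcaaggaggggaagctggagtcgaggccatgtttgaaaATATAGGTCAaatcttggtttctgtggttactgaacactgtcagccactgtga

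Values are log2 scaled reads per peak as deposited, so a difference of 1 is 2-fold. The 5 libraries held 2271585 to 4733829 reads in peaks, with a median of 37 to 67 reads per peak. RORgt-RORa-KO replicate 2 was the shallowest and replicate 3 the deepest. Reads in the peaks of X were 2.06% to 2.48% of each library. The ILC genes Id2, Il7r, Thy1, Ptprc, Kit and Gata3 all had peaks in the gene body. Id2, the gene that carries the Cre, held 222 to 404 scaled reads per kb of peak in the 5 libraries. No peak lay in the body of Cd3e, Cd79a, Lyz2, Csf1r, Col1a1 or Vil1, which mark T cells, B cells, myeloid cells, fibroblasts and epithelium. In fuller lists, 8 of 14 T cell, 5 of 12 B cell and 10 of 16 myeloid and mast cell markers had a peak within 50 kb. So did 6 of 14 epithelial and 6 of 12 stromal and endothelial markers. The empty genes are thus no measure of purity. Epcam had 1 peak, and Pecam1, an endothelial marker that leukocytes also carry, had 6.

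Of the 36251 peaks, 534 (1.47%) differed between RORgt-RORa-KO and RORgt-KO at an adjusted p under 0.05 (limma, Benjamini-Hochberg over all peaks, two-sided). Accessibility was lower at 414 of them (1.14% of all peaks) and higher at 120 (0.331%), and 425 (1.17%) differed at least 2-fold. The count rests on few libraries: 229 peaks passed without RORgt-KO replicate 1, and 86 without RORgt-KO replicate 2, which leaves 1 library assumed to vary like the other groups. Without RORgt-RORa-KO replicate 1, 42 of 392 calls were higher. Without a mean-variance trend 45 passed. Of the 534 calls 22.5% were higher, against 39.1% on RPM values with a pseudocount of 5. At an unadjusted p under 0.05 there were 4524 peaks (12.5%), and the median difference of all peaks was -0.0014. The called peaks were nearest to 381 of the 13147 genes that had a peak within 50 kb (2.9%). The median fall of the 414 lower peaks was -1.28, with a range of 0.67 to 2.69 in size, and the median rise of the 120 higher peaks was 1.24. In bulk libraries, a smaller share of cells with an open site and a less open site in each cell cannot be told apart.

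**Figure D1:**
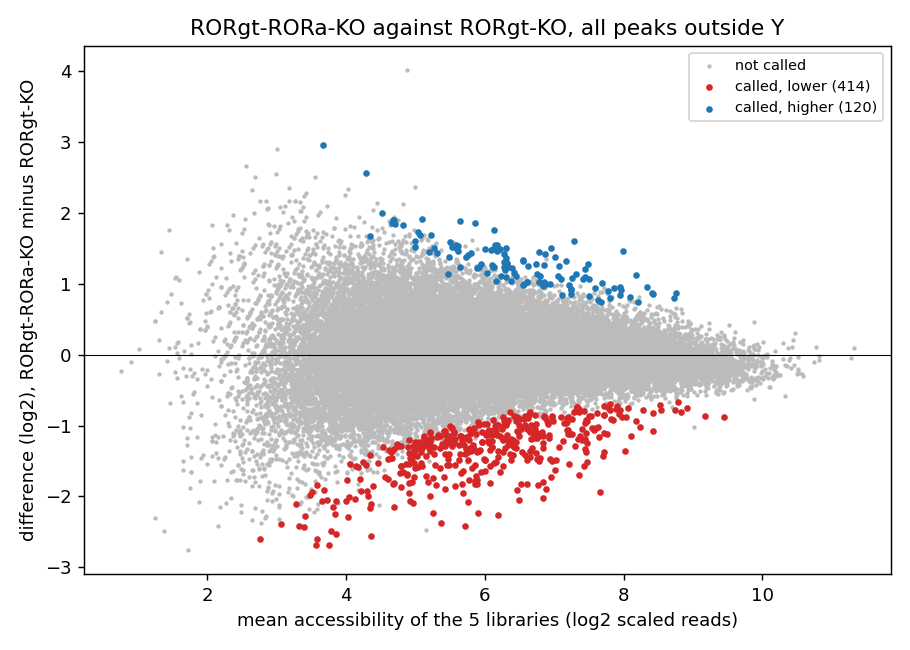
Difference in accessibility (vertical axis, log2, RORgt-RORa-KO minus RORgt-KO) against the mean of the 5 libraries (horizontal axis, log2 scaled reads) for each of 36251 peaks. Red points are the 414 peaks called lower, blue points the 120 called higher and grey points the rest, whose spread is widest at low levels.

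The Control and RORgt-Tbet-KO libraries, which shared the fit and its estimate of spread, place these peaks. Among the 414 lower peaks, the median peak of the 3 Control libraries stood at 7.59, 7.62 and 7.33. It stood at 6.74 and 6.83 in the RORgt-KO libraries and at 5.61, 5.52 and 5.4 in the RORgt-RORa-KO libraries, while the RORgt-Tbet-KO libraries had 6.89 and 6.90. Control was thus the highest group and RORgt-RORa-KO the lowest, with RORgt-Tbet-KO close to RORgt-KO. The 120 higher peaks had medians of 5.68, 5.62 and 5.58 in the Control libraries and 5.74 and 5.65 in the RORgt-KO libraries. Their medians were 6.97, 7.10 and 6.90 after the added RORa loss and 6.13 and 6.07 after the added T-bet loss. For these, RORgt-KO and Control stood at nearly the same level and RORgt-RORa-KO alone was more than 1 log2 unit above them. The levels of RORgt-KO and RORgt-RORa-KO were used to choose the peaks and are a description only. In all 534 called peaks the 3 libraries of one group lay beyond the 2 of the other, against 28.3% of all peaks. The calls were made on these same libraries, so this too is a description only.

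**Figure D2:**
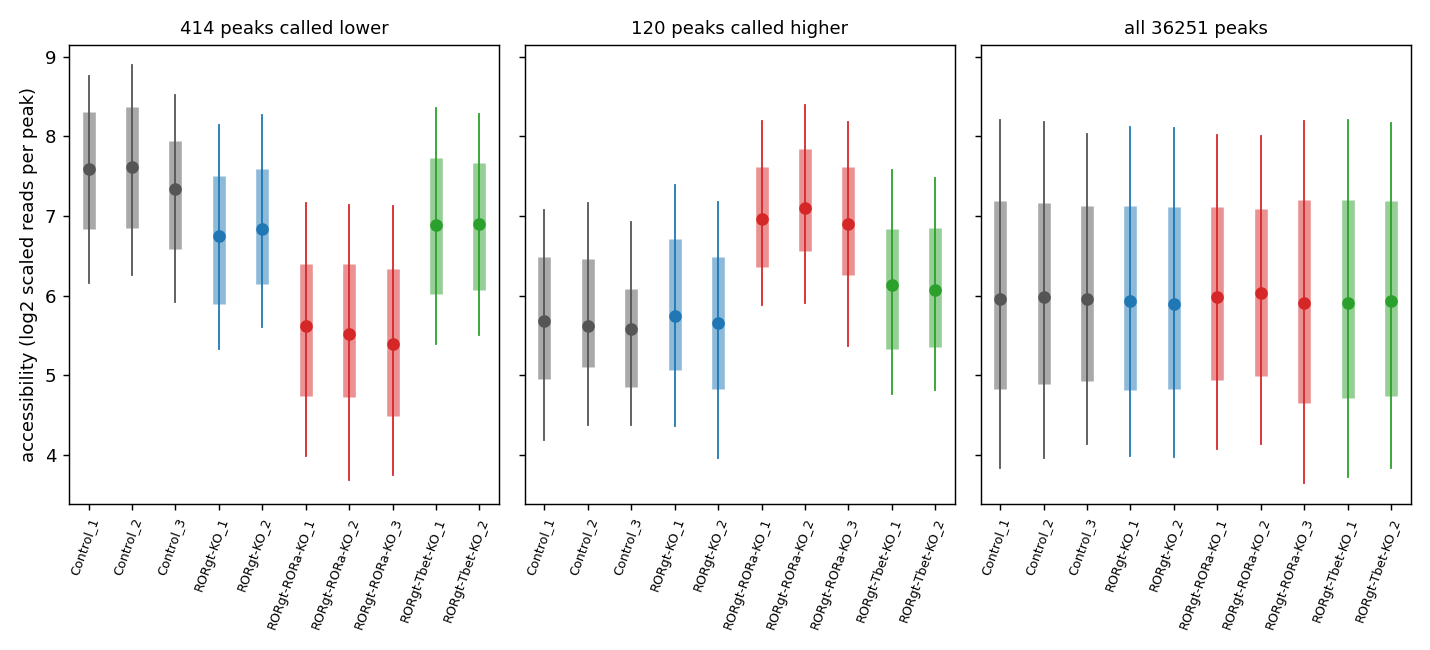
Accessibility (log2 scaled reads per peak) of the 414 lower peaks, the 120 higher peaks and all 36251 peaks in each of the 10 libraries; points are medians, thick bars the middle 50% of peaks and thin lines the 10th to 90th percentile. The medians of the lower peaks step down from Control through RORgt-KO to RORgt-RORa-KO, while the medians of all peaks lie between 5.90 and 6.03.

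No peak in Rora or Tbx21 passed the test. Rora had 14 peaks in its body, and their differences ran from -0.40 to 0.82. The largest, at chr9:69034174-69034938, held 7.12 and 6.74 in RORgt-KO and 7.72, 7.61 and 7.92 in RORgt-RORa-KO (difference 0.82, SE 0.24, adjusted p 0.0806, limma). The libraries did not overlap there, and RORgt-RORa-KO was the higher group. Tbx21, the gene for T-bet, had 2 peaks with differences of 0.77 and 0.40, and neither passed. A deletion of unknown exons need not remove a peak, so these values do not check the RORa deletion.

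Genes of the type 3 program, the IL-17 and IL-22 cytokines with their receptors, chemokines and surface proteins, formed the first list. Of 18 listed genes with a peak, 5 had one that fell and 0 one that rose: Il17a, Il17f, Il23r, Ccl20 and Cd93. They held 6 of the list's 83 peaks (7.23%, beside 1.47% of all peaks), and the median difference of the 83 was -0.13. The lists were chosen with earlier results of these data known, so the share is a description.

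The strongest changes of this list lay in the interval between Il17a and Il17f, the cytokine genes that are neighbours on chromosome 1. A peak 5891 bp beyond Il17a (chr1:20740387-20740965) held 7.28 and 7.04 in RORgt-KO and 5.65, 4.73 and 5.70 in RORgt-RORa-KO. That was 3.49-fold lower (difference -1.80, SE 0.25, adjusted p 6.66e-05). Control stood at 8.73, 8.69 and 8.34, above both. All 3 RORgt-RORa-KO libraries were therefore below both RORgt-KO libraries, which were already below the 3 Control libraries. A peak 16924 bp from Il17f (chr1:20759576-20760222) held 6.97 and 6.80 in RORgt-KO and 5.07, 5.77 and 5.37 in RORgt-RORa-KO, a 2.8-fold fall (SE of the log2 difference 0.24, adjusted p 0.000619). The groups did not overlap.

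At the Il17f promoter itself (chr1:20784151-20784670) the values were 5.71 and 6.32 in RORgt-KO and 4.39, 4.52 and 4.84 in RORgt-RORa-KO, 2.7-fold lower (SE 0.27, adjusted p 0.00278). Its Control libraries, at 7.77, 8.07 and 7.64, were again the highest. Without RORgt-KO replicate 2 the Il17f promoter no longer passed (adjusted p 0.288), while the other called peaks of Il17a and Il17f passed whichever library was left out. The other 5 peaks nearest to these genes were not called. The one at chr1:20754397-20754853, between the 2 called intergenic peaks, held 6.85 and 6.56 against 5.69, 6.24 and 5.84 (difference -0.78, adjusted p 0.105). The one at chr1:20766378-20767093 held 7.32 and 7.03 against 6.89, 6.91 and 6.94, a difference of -0.26, and stood near the Control values. The peaks of the interval thus differed among themselves by more than 1 log2 unit in their response.

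All 3 called peaks were also lower than after the T-bet deletion. The test of RORgt-RORa-KO against RORgt-Tbet-KO, which is the difference between the effects of the second deletions, gave -2.20 beyond Il17a (SE 0.25, adjusted p 5.88e-07), -1.88 at the intergenic Il17f peak (SE 0.24, adjusted p 4.5e-06) and -1.72 at the Il17f promoter (SE 0.27, adjusted p 6.5e-05). Over all peaks this contrast called 2733 (7.54%).

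The peak over the promoter of Il23r (chr6:67491660-67492399) held 7.65 and 7.39 in RORgt-KO and 6.07, 5.86 and 6.30 in RORgt-RORa-KO. It was 2.72-fold lower (difference -1.44, SE 0.23, adjusted p 0.000341), and passed whichever library was left out. In Control it held 7.77, 7.86 and 7.17, and the RORgt deletion alone gave a difference from Control of -0.08 (adjusted p 0.88), in a contrast that called 12.3% of all peaks. The RORgt-KO libraries lay within the Control range, and the RORgt-RORa-KO libraries alone lay below it. Against RORgt-Tbet-KO, with 7.85 and 7.66, the difference was -1.68 (SE 0.23, adjusted p 8.94e-06). The other 9 peaks nearest to Il23r were not called, and their differences ran from -0.21 to 1.10.

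**Figure D3:**
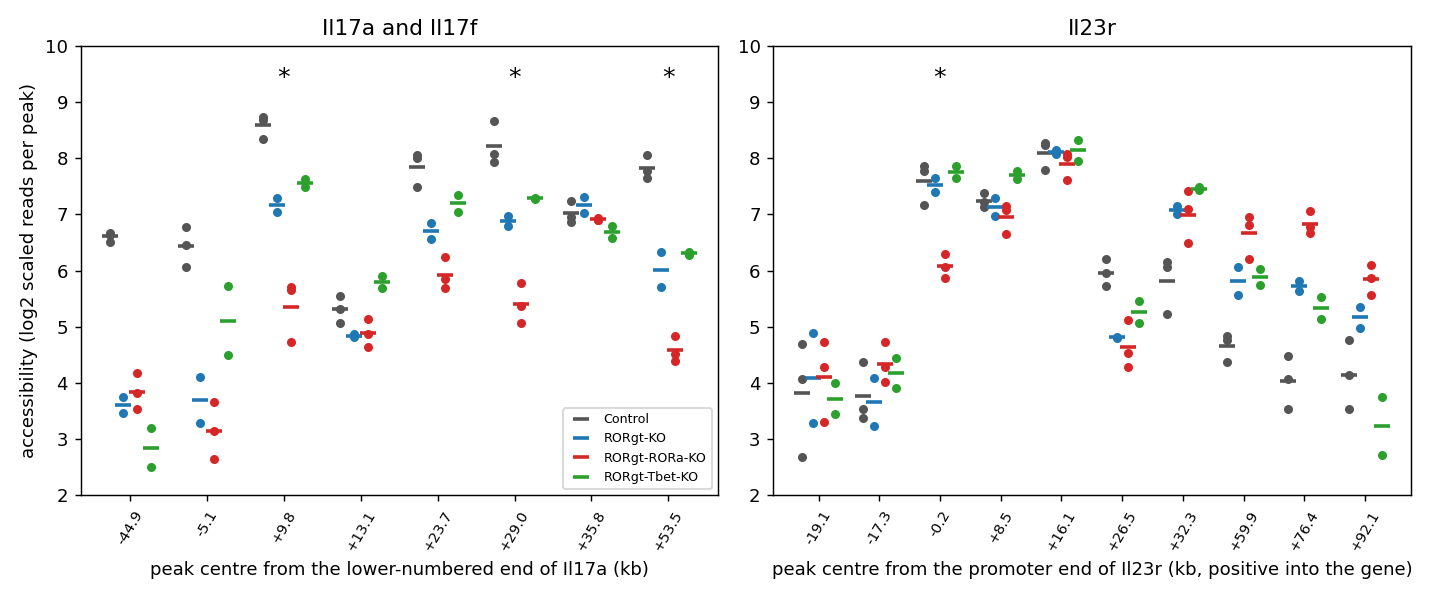
Accessibility (log2 scaled reads per peak) of all 8 peaks nearest to Il17a or Il17f (left) and all 10 nearest to Il23r (right). The horizontal axis gives kb from the lower-numbered end of Il17a (left) and from the promoter end of Il23r (right). Points are libraries, dashes group means, and an asterisk marks a peak called in RORgt-RORa-KO against RORgt-KO. Red points fall below blue at the 3 marked peaks on the left and at the Il23r promoter.

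Ccl20, a chemokine that draws CCR6+ lymphocytes, and Cd93, a surface glycoprotein, followed with smaller margins. A peak 18712 bp from Ccl20 held 5.33 and 6.43 in RORgt-KO and 5.07, 4.28 and 4.01 in RORgt-RORa-KO (difference -1.43, SE 0.34, adjusted p 0.0276). A peak 13847 bp from Cd93 held 5.96 and 6.32 against 5.01, 5.28 and 5.05 (difference -1.03, SE 0.26, adjusted p 0.0347). In both, the groups did not overlap, and RORgt-KO replicate 1 was the nearer one to the RORgt-RORa-KO libraries. Tnfrsf11a, which encodes RANK and was the 1 gene of 14 with a called peak among the LTi-like genes (1 of 80 peaks, 1.25%), held 5.28 and 5.24 against 3.94, 3.40 and 3.16 in a peak of its body (difference -1.76, SE 0.39, adjusted p 0.014). Of these 3 genes' peaks, none passed without RORgt-KO replicate 2 (adjusted p 0.238 to 0.85), those of Tnfrsf11a and Cd93 did not pass without RORgt-KO replicate 1 (adjusted p from 0.0903 to 0.133), Cd93 did not pass without RORgt-RORa-KO replicate 1 (adjusted p 0.0931), and Ccl20 and Cd93 did not pass without RORgt-RORa-KO replicate 3 (adjusted p from 0.0689 to 0.0991).

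Il22, the other main cytokine of group 3 ILCs, had 4 peaks and none was called. Its promoter peak held 6.49 and 5.35 in RORgt-KO and 4.94, 5.63 and 5.13 in RORgt-RORa-KO (difference -0.69, SE 0.30, adjusted p 0.328), and the groups overlapped. In Control it held 6.97, 6.58 and 6.53, and in RORgt-Tbet-KO 7.32 and 7.03. The difference of RORgt-RORa-KO from RORgt-Tbet-KO was -1.94 there (SE 0.30, adjusted p 6.48e-05, limma), in a contrast that called 7.54% of all peaks. The other Il22 peaks did not pass that test (adjusted p 0.0702 to 0.203).

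Over all genes, the 12 with the smallest p had lower peaks. Wdr27, which encodes a WD-repeat protein, had a pair of neighbouring peaks that fell. The one at chr17:14886579-14887376 held 8.76 and 8.89 in RORgt-KO and 7.14, 6.60 and 6.94 in RORgt-RORa-KO, 3.81-fold lower (SE of the log2 difference 0.19, adjusted p 1.21e-06). Its Control values, 9.03, 9.06 and 8.60, covered those of RORgt-KO, so only the RORgt-RORa-KO libraries stood apart. The other, at chr17:14885583-14886320, held 7.74 and 7.70 against 6.07, 5.4 and 5.54, 4.13-fold lower (adjusted p 2.02e-06). Nearby on the same chromosome, a peak 24061 bp from Thbs2, the gene of a matrix glycoprotein, held 6.43 and 7.14 against 4.73, 3.99 and 4.54, which was 5.16-fold lower (adjusted p 3.96e-06).

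Among the genes with the smallest p, Odc1 and Acsl1 encode metabolic enzymes. The list of lipid and cholesterol metabolism had 1 of 76 peaks called (1.32%, beside 1.47% of all peaks). The peak 3856 bp from Odc1 (chr12:17540121-17540952), the gene for ornithine decarboxylase, the rate-limiting enzyme of polyamine synthesis, held 8.43 and 8.32 in RORgt-KO and 6.96, 6.77 and 6.68 in RORgt-RORa-KO. That was 2.97-fold lower (difference -1.57, SE 0.18, adjusted p 4.86e-06). A peak in Acsl1 (chr8:46512536-46513116), which encodes a long-chain acyl-CoA synthetase, held 8.25 and 8.49 against 6.77, 6.73 and 6.54, 3.23-fold lower (SE 0.19, adjusted p 3.96e-06). At both the highest RORgt-RORa-KO library was more than 1 log2 unit below the lowest RORgt-KO library. In Control they were higher still, at 9.22, 9.18 and 8.99 near Odc1 and 9.15, 9.16 and 8.68 in Acsl1. A peak in Btrc, which encodes the F-box protein beta-TrCP, held 7.91 and 7.82 against 6.29, 5.63 and 6.16 (difference -1.84, SE 0.21, adjusted p 5.58e-06), and there RORgt-KO was not below Control, at 7.68, 7.61 and 7.53.

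A further 5 of the 12 genes were Fam189a1, Focad, Ccser2, A1bg and Daam2, with falls of 3.43-fold to 4.05-fold and adjusted p of 3.35e-06 to 1.27e-05. The peaks near Erich3 and Aqr also stood among the largest falls. The peak 1272 bp from Erich3 held 7.08 and 7.24 in RORgt-KO and 4.94, 4.4 and 4.89 in RORgt-RORa-KO (5.33-fold lower, adjusted p 9.45e-06), with Control at 6.44, 7.63 and 7.03. The peak 1474 bp from Aqr, the gene of an RNA helicase of the spliceosome, held 7.28 and 7.19 against 5.13, 4.91 and 4.97 (4.71-fold lower, adjusted p 2.02e-06). Near Erich3 and Aqr the RORgt-KO values lay within or just under the Control range. The peak with the smallest p of each of these 12 genes passed whichever of the 5 libraries was left out. The 12 were chosen after their values were seen.

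By the size of the fall, the 10 named decreases also held weak peaks. A peak in Myo16, which encodes an unconventional myosin, had the largest fall of the 10, 5.77-fold (SE of the log2 difference 0.54, adjusted p 0.01), from 4.93 and 5.82 in RORgt-KO to 4.29, 2.4 and 1.84 in RORgt-RORa-KO. The RORgt-RORa-KO libraries spread over more than 2 log2 units there. Peaks in or near Rprd1b, Abca13, Trpd52l3, Otogl and Cask had falls of 4.17-fold to 4.69-fold, with adjusted p of 0.00337 to 0.0434. None of these 6 peaks passed without RORgt-KO replicate 2 (adjusted p 0.0704 to 0.802), 5 of them (all but the Myo16 peak) did not pass without RORgt-KO replicate 1 (adjusted p 0.0518 to 0.109), and the Myo16, Abca13 and Cask peaks did not pass without RORgt-RORa-KO replicate 3 (adjusted p 0.0515 to 0.0791). Without RORgt-RORa-KO replicate 1, Abca13 and Cask were lost (adjusted p from 0.0649 to 0.122), and without replicate 2, Cask (adjusted p 0.0766). Their direction could not change in these fits, because the groups did not overlap at any of these peaks.

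Clock genes and genes under ROR and REV-ERB control had 1 member of 19 with a called peak, Cry1, which encodes a repressor of the clock. Its 2 called peaks were among 69 of the list (2.90%, beside 1.47% of all peaks), and the list's median difference was 0.08. One Cry1 peak (chr10:85161835-85162258) held 5.24 and 5.51 in RORgt-KO and 4.57, 3.14 and 2.65 in RORgt-RORa-KO (difference -1.92, SE 0.45, adjusted p 0.0219). The other, further along (chr10:85162958-85163240), held 4.81 and 4.56 against 2.07, 3.63 and 2.84 (difference -1.84, SE 0.48, adjusted p 0.0455). Both stood in the body of the gene. In the first, RORgt-KO lay within the Control range, and in the second just below it. Both calls were lost without RORgt-KO replicate 1 (adjusted p from 0.119 to 0.27), without RORgt-KO replicate 2 (from 0.359 to 0.408) and without RORgt-RORa-KO replicate 3 (from 0.0732 to 0.0851), and the second was lost without RORgt-RORa-KO replicate 1 (0.155).

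Arntl, which encodes BMAL1 and whose promoter is a textbook ROR target, had no peak that passed. Its promoter peak held 9.74 and 9.43 in RORgt-KO and 9.61, 9.27 and 9.70 in RORgt-RORa-KO, a difference of -0.06 (SE 0.17, adjusted p 0.935). The 4 peaks of Nr1d1, the gene for the repressor REV-ERBa, had differences of -0.87 to -0.34 and none passed. The largest, at chr11:98772666-98773094, held 7.08 and 6.99 against 6.39, 5.46 and 6.65 (SE 0.30, adjusted p 0.184), with all 3 RORgt-RORa-KO libraries below both RORgt-KO libraries.

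Transcription factors of ILC development and identity were called in 10 of 28 listed genes. A peak of 5 of them fell (Runx2, Zeb2, Tox, Tox2 and Bach2) and a peak of the other 5 rose (Zbtb16, Prdm1, Runx3, Irf8 and Ikzf2), with 11 of 265 peaks called (4.15%, beside 1.47% of all peaks and 2.9% of all genes). Many of these genes are long and hold many peaks, and a gene counts once any peak passes. The median difference of the 265 was 0.08.

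Runx2, which encodes a Runt-domain factor, had the smallest p of the list. Its peak (chr17:44568913-44569862) held 8.23 and 8.26 in RORgt-KO and 7.19, 6.80 and 6.77 in RORgt-RORa-KO, 2.51-fold lower (SE 0.19, adjusted p 0.000117), and it passed whichever library was left out. RORgt-KO was at the low edge of Control (8.61, 8.54 and 8.25). A peak 26777 bp from Zeb2, the gene of a zinc-finger repressor linked to effector lymphocytes, held 7.80 and 7.88 against 6.63, 6.84 and 6.84 (difference -1.07, SE 0.19, adjusted p 0.00216), with Control at 9.23, 9.27 and 8.68. RORgt-KO was thus below Control at the Zeb2 peak, and RORgt-RORa-KO below RORgt-KO.

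Tox and Tox2 encode related HMG-box factors of ILC and T cell development. The Tox peak (chr4:6722897-6723254) held 5.41 and 5.61 in RORgt-KO and 3.29, 4.82 and 2.84 in RORgt-RORa-KO (difference -1.86, SE 0.41, adjusted p 0.0127). RORgt-RORa-KO replicate 2 was the high one of its group and still below RORgt-KO. Of the Tox2 peaks, one 36181 bp away had a difference of -1.22 (SE 0.25, adjusted p 0.00701) and one at a gene end of -0.74 (SE 0.19, adjusted p 0.0434). In Bach2, which encodes a repressor of effector differentiation, a peak held 4.68 and 4.65 against 2.48, 3.14 and 2.43 (difference -1.98, SE 0.44, adjusted p 0.0157).

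Among those that rose, Zbtb16 encodes PLZF, a marker of ILC precursors. Its peak (chr9:48826291-48826626) held 5.41 and 4.82 in RORgt-KO and 6.42, 7.05 and 6.35 in RORgt-RORa-KO (2.8-fold higher, SE of the log2 difference 0.29, adjusted p 0.0048), with Control between, at 6.18, 5.62 and 6.03. A peak 36105 bp from Prdm1, the gene for BLIMP-1, held 5.57 and 5.51 against 6.75, 7.10 and 6.64 (difference 1.29, SE 0.28, adjusted p 0.0132), and Control, at 5.77, 5.13 and 5.81, was near RORgt-KO. A peak 21654 bp from Runx3, a factor of type 1 ILCs and cytotoxic cells, held 6.19 and 6.08 against 7.19, 7.14 and 7.40 (difference 1.11, SE 0.28, adjusted p 0.0363). For Runx3 the RORgt-Tbet-KO libraries stood as high, at 6.88 and 7.18, and the test against them gave 0.21 (SE 0.28, adjusted p 0.745). The Irf8 and Ikzf2 peaks rose by 0.99 and 1.86 (SE 0.26 and 0.48, adjusted p 0.0427 for each). Against RORgt-Tbet-KO, Zbtb16 and Ikzf2 did not pass either (differences 0.51 and 0.68, SE 0.29 and 0.48, adjusted p 0.35 and 0.475). Prdm1 and Irf8 did (1.14 and 0.89, SE 0.28 and 0.26, adjusted p 0.00994 and 0.0278).

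Of these 11 peaks, 10 did not pass without RORgt-KO replicate 2, all but that of Runx2 (adjusted p 0.115 to 0.927). Without RORgt-KO replicate 1, 6 did not pass (the gene-end Tox2 peak, Tox, Bach2, Runx3, Irf8 and Prdm1, adjusted p 0.0967 to 0.298). Ikzf2, the gene-end Tox2 peak, Tox, Runx3 and Irf8 did not pass without RORgt-RORa-KO replicate 1 (0.059 to 0.137) or without replicate 3 (0.0631 to 0.119), and Ikzf2 not without replicate 2 (0.129). Their direction could not change in these fits, because the groups did not overlap at any called peak.

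**Figure D4:**
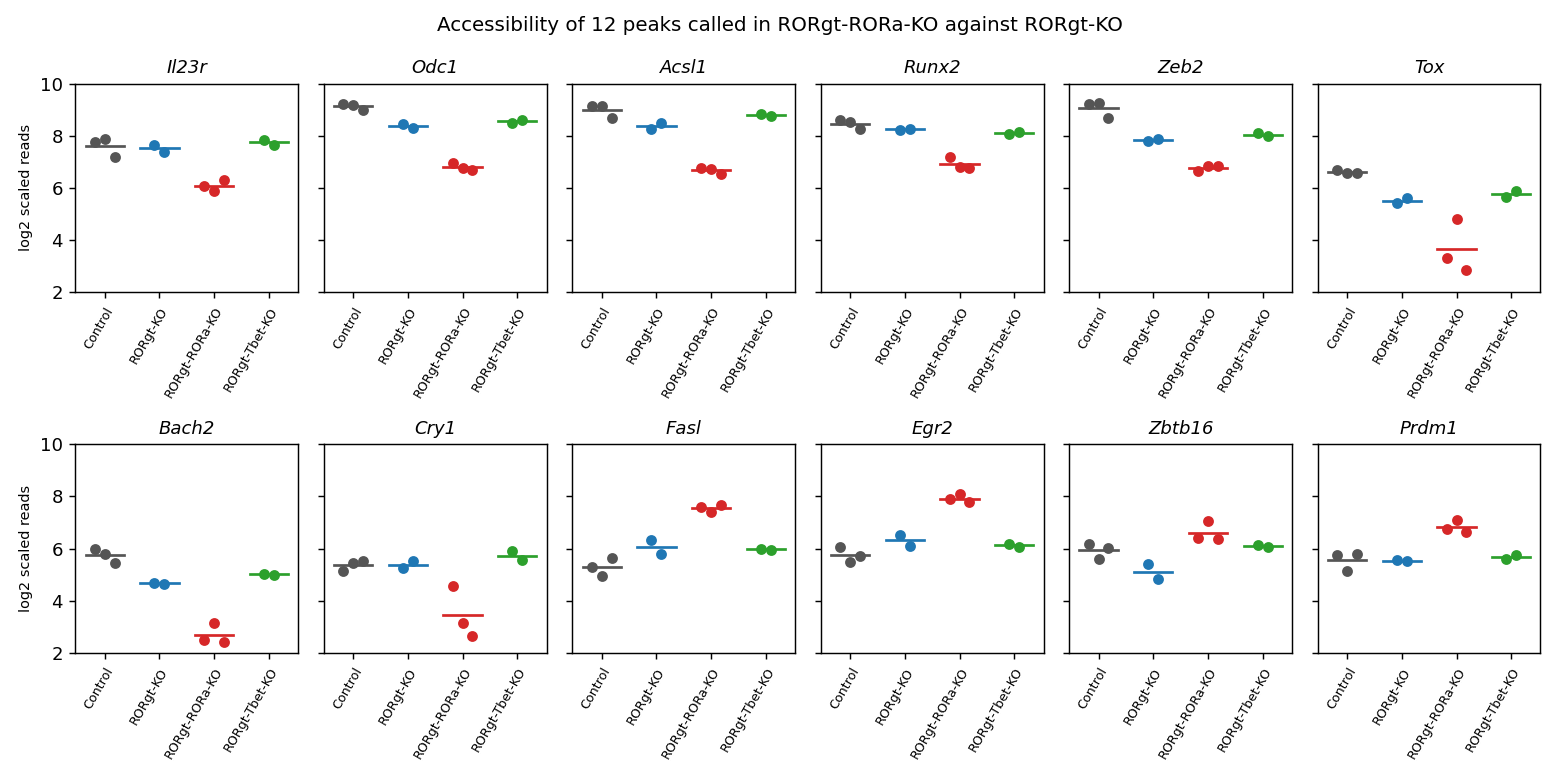
Accessibility (log2 scaled reads) of 12 called peaks, the one with the smallest p of each gene, in the 4 groups; points are libraries and lines group means. The RORgt-RORa-KO libraries are lowest at the first 8 peaks, from Il23r to Cry1, and are above RORgt-KO at Fasl, Egr2, Zbtb16 and Prdm1.

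The type 1 and cytotoxic genes, which serve NK cells and group 1 ILCs, had 1 gene of 21 with a called peak, Fasl, which encodes the death ligand of cytotoxic lymphocytes. It held 2 of the list's 81 peaks (2.47%, beside 1.47% of all peaks), and both rose. The one 5149 bp from the gene (chr1:161774831-161775542) held 6.33 and 5.78 in RORgt-KO and 7.61, 7.39 and 7.66 in RORgt-RORa-KO, 2.83-fold higher (SE of the log2 difference 0.26, adjusted p 0.00151). Control, at 5.28, 4.96 and 5.63, was lowest, and the difference from RORgt-Tbet-KO was 1.59 (SE 0.26, adjusted p 0.000166). The one 18821 bp away held 5.68 and 5.46 against 6.61, 6.57 and 7.12 (difference 1.2, adjusted p 0.0114), and there RORgt-Tbet-KO was similar, at 6.53 and 6.34 (difference 0.33, SE 0.26, adjusted p 0.528).

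The list's median difference was 0.36, against -0.0014 over all peaks. Most of its best-known members did not pass. The Ifng promoter peak held 6.19 and 5.94 in RORgt-KO and 6.51, 6.77 and 6.81 in RORgt-RORa-KO (difference 0.63, SE 0.30, adjusted p 0.386). The promoter peak of Nkg7, a cytotoxic granule gene, held 8.14 and 8.02 against 8.72, 8.82 and 8.73 (difference 0.68, SE 0.22, adjusted p 0.134). In both, the 3 RORgt-RORa-KO libraries were above the 2 RORgt-KO libraries. The 5 peaks of Il12rb2, which encodes a chain of the IL-12 receptor, had differences of 0.16 to 1.25 and none passed.

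NK receptors had 2 genes of 18 with a called peak, and both fell (2 of 73 peaks, 2.74%, beside 1.47% of all peaks; list median 0.20). A peak in Klrc1, which encodes the inhibitory receptor NKG2A, held 6.43 and 6.51 in RORgt-KO and 5.13, 5.86 and 5.30 in RORgt-RORa-KO (difference -1.04, SE 0.24, adjusted p 0.0184). In Control it held 8.65, 8.53 and 8.17, so the larger step was already present with RORgt loss (difference -1.98, adjusted p 2.18e-06). A peak in Cd226, the gene for the activating receptor DNAM-1, held 7.78 and 7.88 against 6.13, 7.48 and 6.69 (difference -1.07, SE 0.27, adjusted p 0.0426). Without RORgt-KO replicate 2 none of the peaks of Fasl, Klrc1 and Cd226 passed (adjusted p 0.169 to 0.51). The Klrc1, Cd226 and farther Fasl peaks did not pass without RORgt-KO replicate 1 (0.0654 to 0.194) or RORgt-RORa-KO replicate 3 (0.0545 to 0.103), and Klrc1 and Cd226 not without RORgt-RORa-KO replicate 1 (0.0931 to 0.244).

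The group 2 ILC genes, which RORa is known to serve, had no called peak among 36 at 14 genes, with a list median of 0.16. With 1.47% of all peaks called, a list this small can hold no call, so this does not show that these genes were spared. Gata3, the defining factor of group 2 ILCs, had 7 peaks with differences of -1.01 to 0.43 and no call. No gene of antigen presentation by MHC class II passed among 11 with 26 peaks, and the same limit holds there. In each of 5 other lists (AHR and TGF-beta, homing, co-stimulation, lipid metabolism and immediate early genes), 1 or 2 genes passed, with 1.16% to 1.33% of the peaks called in the first 4 and 2.47% in the last, beside 1.47% of all peaks. Egr2, an immediate early factor, stood out there with a peak 30316 bp away (chr10:67503380-67504153). This peak also overlapped the promoter window of the predicted gene Gm40679. It held 6.53 and 6.11 in RORgt-KO and 7.89, 8.09 and 7.79 in RORgt-RORa-KO, 3.03-fold higher (SE of the log2 difference 0.24, adjusted p 0.00021), with 6.07, 5.5 and 5.72 in Control and 6.18 and 6.07 in RORgt-Tbet-KO. The RORgt-RORa-KO libraries were above all 7 others, and the peak passed whichever library was left out.

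The other members of these lists were closer to the threshold. Peaks near Tgfbr2, the type II TGF-beta receptor, Gpr15, a gut homing receptor, and Tnfrsf1b, the type 2 TNF receptor, rose by 1.54, 1.24 and 0.96 (SE 0.36, 0.32 and 0.24; adjusted p 0.0203, 0.0461 and 0.0367). Peaks near Ch25h, which encodes cholesterol 25-hydroxylase, and Fosb, an AP-1 subunit, had differences of -1.28 and -0.86 (SE 0.30 and 0.22; adjusted p 0.0262 and 0.0383). None of these 5 passed without RORgt-KO replicate 2 (adjusted p 0.266 to 0.846), and each was also lost without at least 1 other library (adjusted p 0.0588 to 0.251).

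Markers of other cell types had 1 called peak in all. No gene passed among 8 T cell, 5 B cell, 10 myeloid and mast cell or 6 stromal and endothelial markers with a peak, nor among 14 housekeeping genes. With 1.47% of all peaks called, lists this small can hold no call. The median differences of these lists were 0.06, -0.28, 0.03, 0.19 and -0.10. The epithelial list had 1 of 12 peaks called (8.33%, beside 1.47% of all peaks) and a median of -0.01. Of its 6 genes, Krt8, a keratin, passed through a peak 2231 bp away, which held 6.28 and 6.41 in RORgt-KO and 4.94, 5.68 and 4.97 in RORgt-RORa-KO (difference -1.15, SE 0.25, adjusted p 0.012) and 7.23, 7.18 and 7.18 in Control. Its groups did not overlap, and the peak did not pass without RORgt-KO replicate 1 (adjusted p 0.0889), RORgt-KO replicate 2 (0.288) or RORgt-RORa-KO replicate 1 (0.0575). In Epcam, the epithelial adhesion gene, 1 peak held 65.7 to 103 scaled reads per kb in the 5 libraries, and the RORgt-KO libraries were both ends of that range.

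Weak peaks were also found among the 10 named increases. Slc5a11, a sugar cotransporter, had the largest of them, from 3.99 and 2.65 in RORgt-KO to 5.61, 5.46 and 4.89 in RORgt-RORa-KO (4.01-fold, SE of the log2 difference 0.46, adjusted p 0.0192). Control stood at 4.54, 4.46 and 4.48, between the groups. A peak 3792 bp from Il1a, the gene for interleukin-1 alpha, held 3.74 and 3.46 against 5.88, 5.63 and 4.84 (difference 1.85, SE 0.47, adjusted p 0.0367), with RORgt-Tbet-KO also high, at 5.0 and 4.99. A peak 7552 bp from Rgs13, a regulator of G protein signalling, held 4.19 and 5.29 against 6.46, 7.24 and 6.09 (difference 1.86, SE 0.39, adjusted p 0.00904), and there RORgt-Tbet-KO, at 4.77 and 4.45, and Control were low (difference from RORgt-Tbet-KO 1.99, SE 0.39, adjusted p 0.00106).

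St18 was 1 of 2 genes with several called peaks that were all higher, the other being Fasl. It encodes a zinc-finger factor, and its peak with the larger rise held 4.45 and 4.56 in RORgt-KO and 6.01, 6.88 and 6.29 in RORgt-RORa-KO (difference 1.89, SE 0.38, adjusted p 0.00589). The remaining 6 named increases, near or in Cd46, Adm2, Mast4, Ikzf2, Tnrc6b and Shc1, ran from 1.76 to 1.91. Of all 10 named increases, only the Rgs13 and Shc1 peaks also differed from RORgt-Tbet-KO (Shc1 2.06, SE 0.45, adjusted p 0.00369). The others had differences from RORgt-Tbet-KO of 0.44 to 0.91 (adjusted p 0.164 to 0.682). Leaving out single libraries ended the calls of 3 to 9 of these 10 peaks. The most were lost without RORgt-KO replicate 2 (9, all but Rgs13, adjusted p 0.109 to 0.927), then without RORgt-RORa-KO replicate 2 (8, all but Slc5a11 and St18, 0.0531 to 0.143), RORgt-RORa-KO replicate 1 (7, all but Cd46, St18 and Rgs13, 0.0752 to 0.186), RORgt-KO replicate 1 (5: Adm2, St18, Rgs13, Il1a and Shc1, 0.0792 to 0.242) and RORgt-RORa-KO replicate 3 (3: Ikzf2, Tnrc6b and Shc1, 0.0545 to 0.118). The direction of these rises could not change in such fits, because the groups did not overlap at any of them.

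Most called peaks lay away from the ends of protein-coding genes. Ends of other genes did not count, such as that of Gm34350, whose promoter window lay under a called peak. Within 1 kb of a gene end lay 29.9% of all peaks, but 8.21% of the lower (34 of 414) and 4.17% of the higher peaks (5 of 120). Bodies of genes held 46.4% of the lower and 40.8% of the higher peaks, against 39.1% of all. Between genes and within 50 kb lay 24.6% of the lower and 40.8% of the higher peaks, against 20.9%. Beyond 50 kb of any protein-coding gene lay 20.8% of the lower and 14.2% of the higher peaks, against 10.1%. By place, 0.359% of the gene-end peaks, 1.70% of those in bodies, 1.99% of those between genes and 2.81% of those beyond 50 kb were called. Lower peaks were also longer, with a median of 641.5 bp against 481 bp over all peaks, and higher peaks had 509.5 bp. Without RORgt-RORa-KO replicate 3, 13.5% of the called peaks were at gene ends, against 7.30% with all libraries.

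**Figure D5:**
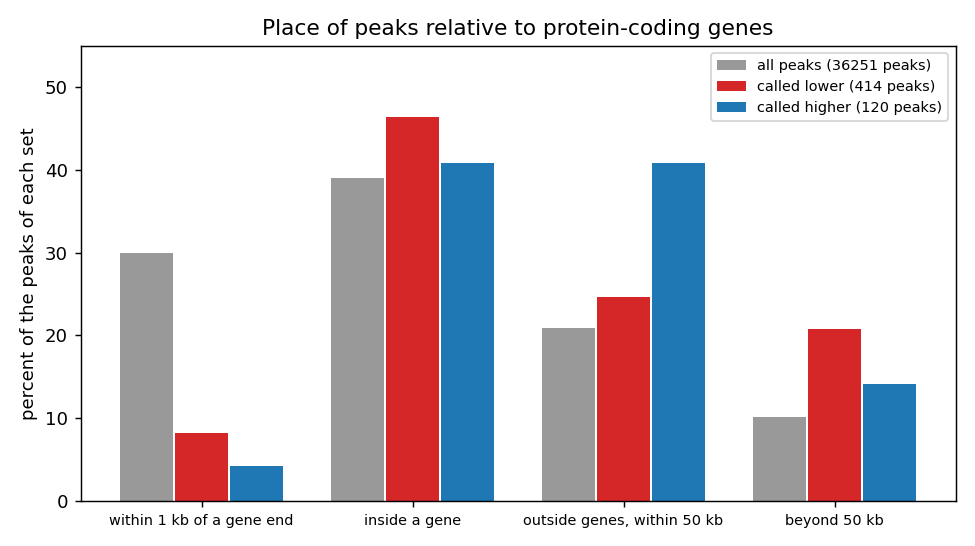
Share of all 36251 peaks, of the 414 called lower and of the 120 called higher (vertical axis, percent of each set) by place relative to protein-coding genes. Gene ends hold 29.9% of all peaks but 8.21% of the lower and 4.17% of the higher ones.

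Some of the strongest changes were far from any protein-coding gene. The peak at chr12:32560709-32561567, 177766 bp from Ccdc71l, held 7.44 and 7.65 in RORgt-KO and 5.44, 5.07 and 5.37 in RORgt-RORa-KO, 4.78-fold lower (SE of the log2 difference 0.22, adjusted p 1.21e-06). It stood at 8.17, 8.02 and 7.56 in Control. The peak at chr15:67423608-67424442, 246662 bp from St3gal1, held 6.55 and 7.14 against 4.88, 4.99 and 4.84 (difference -1.94, SE 0.28, adjusted p 0.000116). The higher peak with the smallest p of those beyond 50 kb, at chr5:64029516-64030261 and 60496 bp from Rell1, held 7.08 and 7.14 against 8.56, 8.67 and 8.47 (2.74-fold higher, SE 0.19, adjusted p 2.47e-05). These 3 were named after their values were seen, and each passed whichever library was left out. By chromosome, 0.706% (chromosome 11) to 2.35% (chromosome 18) of the peaks were called, and 9 of 940 on X.

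Promoter windows were searched for the ROR element on both strands, in the 300 bases from 250 before to 50 after each RefSeq start site. ANNTAGGTCA was in 230 of 32851 windows (0.7%) and AGGTCA, which it contains, in 5340 (16.3%). Of 8849 peaks that overlapped a window, 32 were called (0.362%), 27 of them lower. The longer motif was in the windows of 45 of these peaks, of which 2 were called (4.44%), and 30 of the other 8804 were (0.341%). With the core, 5 of 1174 were called (0.426%), against 27 of 7675 without it (0.352%).

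The 2 called peaks with the longer motif were the Il23r promoter and the one at chr7:67802655-67803884, over the Gm34350 window, both printed above. The latter held 8.62 and 8.49 in RORgt-KO and 7.16, 6.95 and 7.27 in RORgt-RORa-KO, 2.7-fold lower (SE of the log2 difference 0.18, adjusted p 2.47e-05), and passed whichever library was left out. Control, at 8.20, 8.34 and 8.0, was not above RORgt-KO. Arntl also held the longer motif, as AAGTAGGTCA past its start site, in the promoter peak that did not pass, so 43 of the 45 peaks with the letters had no call. A match of letters is a description of the window and shows no binding.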

How the data were processed

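ATAC-seq libraries of sorted ILCs were made from 10 biological samples. The submitters' processing notes name Trim Galore 0.62, Bowtie2 2.3.5.1, SAMtools, MACS2 and the build GRCm38. The deposited table holds log2 scaled reads for 36262 peaks, and how the authors set the scale of each library is not given in the labels. Raised to the power of 2, all values of non-empty peaks were whole multiples of 1 step per library within 0.01, which gave the reads (2271585 to 5047436 per library), and empty peaks held 0.9 of a step. The 11 peaks on Y were left out.

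The deposited values were fitted with limma 3.58.1 in R 4.3.3, with a mean-variance trend and the 4 groups of all 10 libraries in 1 fit (residual degrees of freedom 6, prior 22.5, median SE 0.303). Each contrast was adjusted over 36251 peaks by the Benjamini-Hochberg method, two-sided, at 0.05. Each p and each SE (the moderated standard error) is limma's. On simulated data for this comparison with 200 of 36251 peaks changed, 9% of 2-fold and 93% of 4-fold changes were recovered. There were 9 false calls beside 102 recovered changes of the right sign. The simulated reads had a dispersion set to 0.05 for every peak, not estimated from these libraries. Changes were placed only in peaks with a mean of 10 reads or more. Under these settings most 2-fold changes were missed, and the share missed in the real libraries was not tested.

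Peaks took the nearest protein-coding gene within 50 kb in RefSeq GRCm38.p6 (32579 peaks); the table has no exons, so places are gene ends, bodies and gaps. Named peaks are those in Rora and Tbx21, the 10 largest rises and falls with groups that did not overlap and 3 reads or more per library (1 per gene, predicted genes left out), and the 3 genes with the smallest p of each of 19 lists; other called list members, uncalled peaks and peaks said to be so were named after their values were seen. Not every peak under the rule is reported here. The comparison, members and lists were chosen with earlier results of these data known. Figures were drawn with matplotlib 3.10.9. Alternatives changed the scaling, pseudocount, filter, trend, weights, samples and tool, and left out each library.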

Additional observations from a re-analysis of the deposited data

How the results depend on the processing

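The peaks changed in RORgt-RORa-KO against RORgt-KO (534, with 120 higher, 414 lower and 425 at least 2-fold) were recounted under 15 alternatives, and none of 109 named peaks that passed changed direction where it was tested. The filter on low peaks tested 97 of the 109, and each of the other alternatives all of them. Leaving out a library, the low peaks, the trend or the other groups could not change a direction. At every called peak the libraries of the groups compared did not overlap. Leaving out single libraries gave 86 to 606 peaks, 6 to 99 higher, 80 to 507 lower, 86 to 484 at least 2-fold and 6.63% to 13.5% at gene ends (7.30% as reported). The lowest counts came without RORgt-KO replicate 2, and 84 of those 86 peaks were among the 534. Without a mean-variance trend 45 peaks passed (4 higher, 41 lower, all 45 at least 2-fold), and 20 of the 109 named peaks still did. Library weights gave 1212 (387 higher, 825 lower, 686 at least 2-fold, 14.2% at gene ends). A pseudocount of 5 on RPM gave 229 higher and 185 at least 2-fold, with 39.1% of calls higher against 22.5% as reported and 9.92% at gene ends. Voom on the recovered reads gave 417 peaks and 10.3% at gene ends. A fit of the 2 groups alone gave 219 lower, with 43.8% of its calls higher. The causes were not tested. Other scalings moved the median of all peaks by at most 0.06 and gave 537 to 623 peaks. With the replicate number as a block 605 peaks passed, 216 of them higher; the labels do not say that numbers mark shared animals or days, and the deviations of same-numbered libraries had correlations of 0.0056 and 0.073, so the pairing was not used. Depth limits weak peaks: 12 of the lower and 1 of the higher peaks had fewer than 3 reads in a library.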

Other observations

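Some genes had several called peaks. Of 44 genes with 2 or more called peaks, 38 had only lower ones, 2 (Fasl and St18) only higher ones and 4 (Fancc, Mast4, Farp1 and Ppm1h) both. Ednrb, which encodes the endothelin receptor B, had 3 lower peaks. The one at its promoter (chr14:103843392-103844434) held 6.96 and 7.17 in RORgt-KO and 5.61, 5.63 and 5.43 in RORgt-RORa-KO (difference -1.51, SE 0.23, adjusted p 0.000222, limma), with Control at 8.4, 9.04 and 8.52. The other 2 Ednrb peaks also fell, with differences of -1.36 and -1.53. Ppm1h, which encodes a protein phosphatase, had 2 peaks that fell (differences -1.10 and -1.27) and 1 that rose (0.98) (7.45 and 7.37 against 6.48, 5.82 and 6.62 for the first, 6.71 and 6.53 against 7.46, 7.84 and 7.52 for the last). The Ppm1h peak that rose did not pass in any of the 5 fits without 1 library, and without RORgt-KO replicate 1 none of the 3 Ppm1h peaks passed. Of the 18 peaks of the 6 genes with 3 called peaks, 12 did not pass without RORgt-KO replicate 1 (adjusted p 0.053 to 0.294), and 6, 3 and 4 did not without RORgt-RORa-KO replicates 1, 2 and 3 (0.0549 to 0.207). Without RORgt-KO replicate 2 most of the 18 did not pass either. Their direction could not change in these fits, because the groups did not overlap.

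The largest difference of any peak did not pass. A peak 24669 bp from Col19a1 (chr1:24612591-24612912) held 1.28 and 3.65 in RORgt-KO and 8.98, 10.78 and -0.31 in RORgt-RORa-KO (difference 4.02, SE 1.63, adjusted p 0.28). RORgt-RORa-KO replicates 1 and 2 were high, and replicate 3 was at the low end of all 10 libraries, with RORgt-Tbet-KO at -0.09 and 0.75.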
